A study of Mus musculus with 15 samples.

Results

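The nuclear encoded subunits of the respiratory chain were followed in LSZ2 and LSZ4, 2 lines of mouse non-small cell lung cancer, whose cells carried a control hairpin or a hairpin against Siva. Members were the genes whose name on the array begins as the subunits of complexes I to V are named (Nduf followed by a, b, c, s or v and a digit, Sdha to Sdhd, Uqcr, Cox4 to Cox8, and Atp5). This gave 85 of the 36163 gene names on the array, with 120 probes, of which 60 members had 1 probe and 25 had several. Of them 81 were among the 22836 gene names bright enough to be tested. They comprised 35 of 35 members of complex I, 4 of 4 of complex II, 8 of 8 of complex III, 15 of 18 of complex IV, 15 of 15 of complex V and 4 of 5 genes that the naming rule takes in although they are not counted here as subunits (Cox4nb, Atp5s, Atp5sl, Cox7a2l and the untested Ndufa4l2).

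RNA was measured on 15 Agilent 1-colour arrays, 7 from control cells and 8 from cells with a Siva hairpin. The control cells carried shGFP in the pLKO.1 vector (1 array of LSZ2, 2 of LSZ4) or shLacZ in the vector labelled LL37 (2 arrays of each line). The Siva cells carried shSiva1 or shSiva2 in pLKO TRC2.0 (2 arrays of each hairpin in each line). All cells were infected with virus and harvested 2 days after plating, and all except the shLacZ cells had first been selected in puromycin for 3 days. The 2 LSZ4 shGFP arrays were taken as replicates. Whether replicates were grown as separate cultures is not stated, and p-values here reflect only the spread between these samples, which may be technical. Each line is 1 cell line, and all control arrays lay on 1 slide and all Siva arrays on the other. The effect of the Siva hairpins therefore cannot be told apart from that of the slide or of the vector.

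The respiratory chain passes electrons from NADH (complex I, NADH dehydrogenase) and succinate (complex II, succinate dehydrogenase) through coenzyme Q to complex III (cytochrome bc1), cytochrome c and complex IV (cytochrome c oxidase), which reduces oxygen. Complexes I, III and IV pump protons across the inner mitochondrial membrane, and complex V (ATP synthase) uses the gradient to make ATP. Apart from the subunits made inside the mitochondrion, all subunits are encoded in the nucleus and imported, and several come as tissue-specific or inducible isoforms. The transcription factors NRF1, GABP and YY1 and the oestrogen-related receptors are known to act on promoters of such genes.

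The promoters of 4 members are shown, with matches to motifs of those factors, because the comparisons of hairpins below turn on these members. RefSeq promoters (build GRCm38.p6, 250 bases before to 50 after the start, 300 bases in all) were matched for 69 of the 85 members. Matches on either strand to GCATGCGC (NRF1), CCGGAAG (ETS factors such as GABP), AAGATGGC (YY1) or TCAAGGTCA (oestrogen-related receptors) are in capitals. The windows are chr17:24724374-24724673 (minus strand) for Ndufb10, chr10:94198785-94199084 (plus strand) for Ndufa12, chr15:102670998-102671297 (minus strand) for Atp5g2 and chr7:30183921-30184220 (plus strand) for Cox7a1.
Ndufb10: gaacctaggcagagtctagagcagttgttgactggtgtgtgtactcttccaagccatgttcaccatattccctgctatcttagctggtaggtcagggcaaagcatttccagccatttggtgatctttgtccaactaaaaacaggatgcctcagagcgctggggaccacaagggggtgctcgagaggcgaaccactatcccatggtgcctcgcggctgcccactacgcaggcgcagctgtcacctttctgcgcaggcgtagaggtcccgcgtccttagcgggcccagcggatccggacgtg
Ndufa12: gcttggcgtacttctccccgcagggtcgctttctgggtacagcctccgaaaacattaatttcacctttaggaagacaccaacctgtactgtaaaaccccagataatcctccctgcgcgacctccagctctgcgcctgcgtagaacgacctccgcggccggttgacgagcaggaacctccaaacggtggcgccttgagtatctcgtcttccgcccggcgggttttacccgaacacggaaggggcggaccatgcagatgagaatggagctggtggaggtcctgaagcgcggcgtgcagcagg
Atp5g2: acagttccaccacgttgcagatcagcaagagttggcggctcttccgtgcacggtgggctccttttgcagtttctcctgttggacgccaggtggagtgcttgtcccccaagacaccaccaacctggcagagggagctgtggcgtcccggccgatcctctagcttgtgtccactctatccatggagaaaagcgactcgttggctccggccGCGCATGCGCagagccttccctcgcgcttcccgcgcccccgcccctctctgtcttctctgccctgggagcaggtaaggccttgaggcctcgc
Cox7a1: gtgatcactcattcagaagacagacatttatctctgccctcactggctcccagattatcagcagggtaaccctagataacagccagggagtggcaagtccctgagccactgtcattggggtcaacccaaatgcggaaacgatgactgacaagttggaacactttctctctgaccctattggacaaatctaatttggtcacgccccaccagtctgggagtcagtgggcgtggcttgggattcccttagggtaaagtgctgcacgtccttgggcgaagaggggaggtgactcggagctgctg
Only the Atp5g2 promoter among these 4 held one of the motifs, an NRF1 match on each strand that overlap each other, beginning 42 and 40 bases before the start. In the windows of Ndufb10, Ndufa12 and Cox7a1 these letters were not found, which says nothing about the factors themselves.

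Over the 69 promoters, the NRF1 letters were found in 10 (14.5%), against 3.61% of 17492 promoters of protein-coding genes of the same length. The ETS letters were found in 15 (21.7% against 11.9%), the YY1 letters in 10 (14.5% against 3.22%) and those of the oestrogen-related receptors in 2 (2.9% against 0.332%). At least 1 of the NRF1, ETS and YY1 motifs was present in 30 of 69 member promoters, or 43.5%, against 17.3% of all. The share was 14 of 31 in complex I, 2 of 3 in complex II, 3 of 5 in complex III, 3 of 13 in complex IV and 7 of 14 in complex V, the remaining match being in a gene that is not a subunit. Complex I held 7 of the 10 YY1 matches. These are descriptions of sequence and were not tested.

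The knockdown was first checked on the target. Siva1, the mouse gene for Siva, was lower with the Siva hairpins by a log2 change of -2.52 (SE 0.26, adjusted p = 3.18e-05, limma with Benjamini-Hochberg adjustment over 22836 genes), and was 0.84 higher with shSiva2 than with shSiva1 (SE 0.27, adjusted p = 0.0391). The epithelial markers Krt8, Krt18, Krt19 and Cdh1 were well above background on all 15 arrays and Epcam on all but 1 control array. Of the alveolar and airway markers, Sftpc and Nkx2-1 were well above background on none, Sftpb on 7 control and 4 Siva arrays, Hopx on 5 and 2, Scgb1a1 on 4 and 4, and Ager on 4 and 5. Probes for Pecam1, Kdr, Cd3e, Col1a2, Myh7 and Tnnt2, named for other cell types, were well above background on all arrays, whereas Cdh5, Dcn, Pdgfra, Pdgfrb and Ckm were on none. The part of other cells in the results was not tested. In such bulk samples, fewer cells of a type and less RNA per cell cannot be told apart.

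Most members gave very bright signals. In the ranking of genes by mean signal, 62 of 81 members lay in the top 10% and 74 in the top 20%, and 80 were well above background on all 15 arrays. The exception, Cox6a2, the heart and muscle isoform of subunit VIa of cytochrome c oxidase, passed that flag on 6 control and 7 Siva arrays. The members not tested were Cox7b2, Cox8c and Ndufa4l2, well above background on 0 arrays, and Cox8b on 1, a Siva array. Of the isoform sets, Cox4i1 and Cox4i2, Cox6a1 and Cox6a2, Cox6b1 and Cox6b2, Cox7a1 and Cox7a2, and Atp5g1, Atp5g2 and Atp5g3 (which encode the same c ring protein of ATP synthase) had all their genes tested. Only Cox8a was tested of Cox8a, Cox8b and Cox8c. Ndufa4, a subunit of cytochrome c oxidase despite its name, was tested and its relative Ndufa4l2 was not.

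The arrays differed in brightness. The 75th percentile of the processed signal, by which each array was scaled, ran from 428 (LSZ4 shGFP replicate 1) to 1029 (LSZ2 shLacZ replicate 1), a log2 range of 1.27. LSZ2 arrays lay between 791 and 1029 and LSZ4 arrays between 428 and 964. No spot was saturated on any array, and 49 to 60.6% of spots were well above background. The change in unscaled log2 signal per unit of log2 brightness had a median between 0.56 and 0.84 in the 7 dimmer of 10 equal bins of genes by signal, then 0.40, 0.23 and, in the brightest bin, -0.02. Its median over the 81 members was -0.04. The members' signals thus did not follow the brightness of their array, while the value subtracted from them did.

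After scaling, the median of the members (each less its own mean over arrays) ran from -0.51 on LSZ4 shSiva1 replicate 1 to 0.79 on LSZ4 shGFP replicate 2, a range of 1.30. Without scaling it ran from -0.13 to 0.13, a range of 0.26, and after quantile normalization the range was also 0.26. The ranges by complex were 1.33 scaled and 0.28 unscaled in complex I, 1.19 and 0.48 in complex II, 1.35 and 0.30 in complex III, 1.40 and 0.36 in complex IV, and 1.26 and 0.28 in complex V. In each complex the scaled range exceeded the unscaled one. Results below are given on the scaled values, with quantile normalization, with the log2 brightness of the array as a term of the model and, chosen after the values were seen, without scaling.

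**Figure D1:**
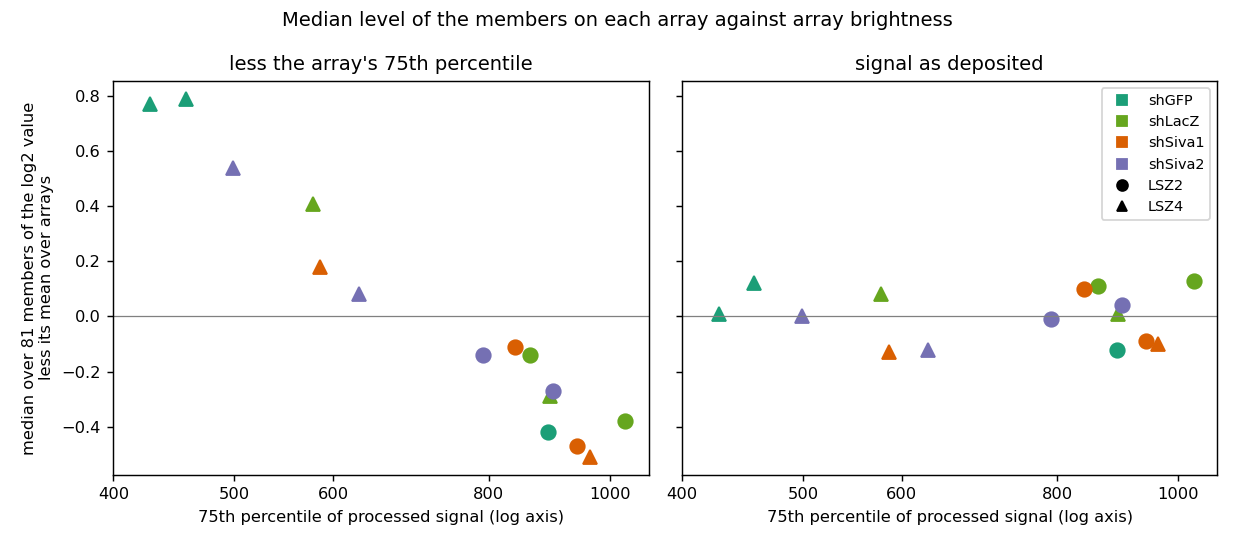
Median over the 81 members of the log2 value less each member's mean over arrays (y axis), against the 75th percentile of the processed signal of the array (x axis, log scale), for values less that percentile (left) and as deposited (right), 1 point for each of the 15 arrays, with colours for hairpins and shapes for lines. The scaled medians run from 0.79 on a dim array to -0.51 on a bright one, and the unscaled ones stay between -0.13 and 0.13.

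A few members did follow the brightness. The slope exceeded 0.5 in 8 of 81 members (Ndufs1, Atp5s, Atp5f1, Cox7a1, Cox7b, Uqcrb, Uqcrc2 and Ndufa1), lay between -0.5 and 0.5 in the other 73 and was below -0.5 in 0. Ndufs1, the largest core subunit of complex I, had the steepest slope of the members, 1.99. Its unscaled signal was 7492 and 8105 on the LSZ4 shGFP arrays, 43078 and 16263 with shLacZ, 28905 and 9746 with shSiva1, and 22153 and 9255 with shSiva2 in the same line. In LSZ2 it was 36582 with shGFP, 43718 and 35697 with shLacZ, 28185 and 20286 with shSiva1, and 30618 and 33546 with shSiva2. In LSZ4 the replicates with shLacZ, shSiva1 and shSiva2 thus lay far apart, the dimmer array having the lower signal, and those with shGFP, both dim, lay close together. Ndufs1 was called in none of the 9 comparisons on scaled values, and without scaling it was lower in LSZ4 (-1.11). With brightness as a term it was higher with shSiva2 than with shSiva1 (0.67, limma adjusted p = 0.00129). In that setting it was also lower with the Siva hairpins than with shLacZ (-0.34, adjusted p = 0.0256).

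**Figure D2:**
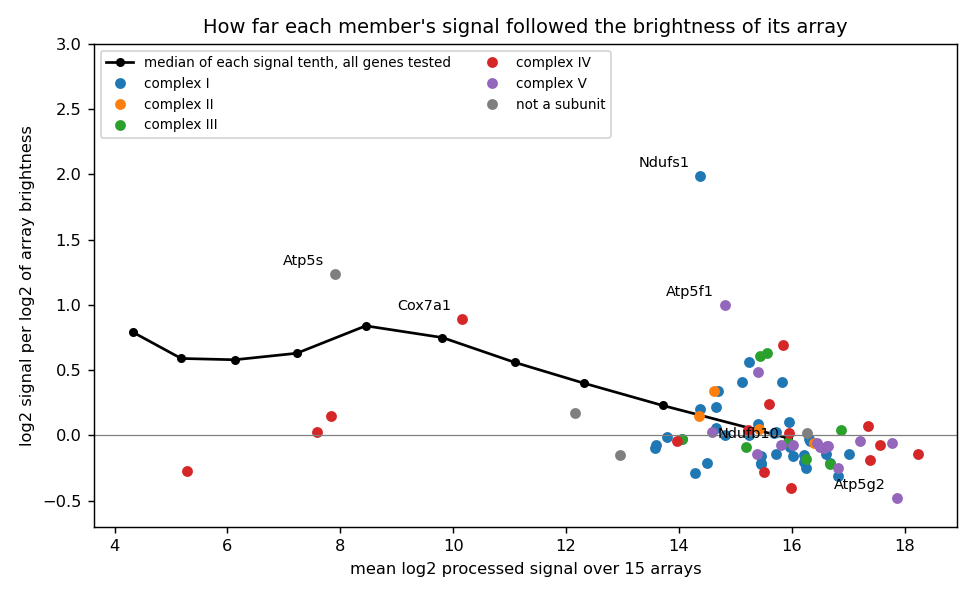
Change in log2 signal per unit of log2 array brightness (y axis) against mean log2 processed signal over 15 arrays (x axis) for the 81 members, coloured by complex, with the median of each of 10 bins of all genes as a black line. Most members lie near 0 at high signal, and Ndufs1 stands at 1.99.

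Siva hairpins against control, over both lines, gave 1 call among the 81 members. Ndufb10, an accessory subunit of the membrane arm of complex I, was lower with the Siva hairpins (log2 change -0.81, SE 0.21, 95% interval -1.25 to -0.37, limma adjusted p = 0.0218, 7 control and 8 Siva arrays). Of all genes tested 5.67% were lower and 4.3% higher, so the share of members called was below the background in both directions. The members' median change was -0.14 and that of all genes -0.12, with 72 of 81 members below 0 and 46 below the median of all genes. The median was -0.16 in complex I, -0.09 in complex II, -0.19 in complex III, -0.18 in complex IV and -0.11 in complex V.

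The unscaled Ndufb10 signal did not overlap between arms. In LSZ2 it was 74169 with shGFP, 88011 and 88912 with shLacZ, 53921 and 61127 with shSiva1, and 53145 and 54630 with shSiva2. In LSZ4 it was 81922 and 92391 with shGFP, 78106 and 85136 with shLacZ, 43452 and 49163 with shSiva1, and 43658 and 47332 with shSiva2. Every Siva array thus lay below every control array, in both lines and for both hairpins, as was so for 2 of 81 members and 2.53% of 22811 genes. The other such member was Cox6b2, the testis isoform of subunit VIb of cytochrome c oxidase, with 183 to 301 (median 245) on control and 138 to 177 (median 165) on Siva arrays.

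On the scaled values the Ndufb10 arms overlapped, from 6.38 to 7.66 on control and from 5.49 to 6.57 on Siva arrays. The overlap came from LSZ2 control arrays at 6.38 and 6.42 and dim LSZ4 Siva arrays at 6.39 and 6.57. The bright LSZ4 control array, shLacZ replicate 1, also lay below the Siva array at 6.57, so the arms overlapped within LSZ4 too. The Ndufb10 change was -0.63 after quantile normalization (SE 0.08, limma adjusted p = 0.000173), -0.73 with brightness as a term (SE 0.07, adjusted p = 2.37e-05) and -0.74 without scaling (SE 0.08, adjusted p = 6.61e-05). It stayed called without any single array, with changes between -0.91 and -0.68. The call was lost without both LSZ4 shGFP arrays (-0.57, adjusted p = 0.0979) and when the 8 groups of line and hairpin entered as a random block (-0.79, adjusted p = 0.0983). The Ndufb10 probe lies at chr17:24859019-24859078 on mm9, and the gene has 1 probe on the array.

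By complex, the largest fall and largest rise over both lines were as follows, none of them called except Ndufb10. In complex I the highest value was 0.04 for Ndufb4 (SE 0.19, limma adjusted p = 0.911), another membrane arm subunit. In complex II, Sdha, the flavoprotein that oxidises succinate, had -0.32 (adjusted p = 0.207) and Sdhc, a membrane anchor, 0.04 (adjusted p = 0.917). In complex III, Uqcrfs1, the Rieske iron-sulphur protein, had -0.34 (adjusted p = 0.259) and Uqcrc2, a core protein, -0.02 (adjusted p = 0.949). In complex IV, Cox6b2 had -0.65 (adjusted p = 0.0581) and Cox6b1, its widely expressed counterpart, 0.04 (adjusted p = 0.926). In complex V, Atp5a1, the alpha subunit of the catalytic head, had -0.58 (adjusted p = 0.0559) and Atp5f1, a stalk subunit, 0.01 (adjusted p = 0.958). Atp5s had the highest value of all 81, 0.37 (adjusted p = 0.112).

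Atp5a1 missed the threshold on scaled values. Its unscaled signal was 62866 with shGFP and 83608 and 84787 with shLacZ in LSZ2, and 78801, 87524, 85993 and 88516 on the LSZ4 controls. It was 59411 and 67490 with shSiva1 and 53119 and 53823 with shSiva2 in LSZ2, and 60440, 62106, 48382 and 51346 in LSZ4. The arms overlapped through 1 control array, LSZ2 shGFP, which lay below 1 Siva array, LSZ2 shSiva1 replicate 2. The Atp5a1 change was called after quantile normalization (-0.40, limma adjusted p = 0.0106), with brightness as a term (-0.52, adjusted p = 0.00158) and without scaling (-0.52, adjusted p = 0.00306).

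The settings gave different numbers of calls over both lines. Quantile normalization called 2 members lower and 0 higher (6.94% and 6.89% of all genes), and no scaling 6 lower and 0 higher (10.6% and 5.74%). With brightness as a term, 14 were lower and 1 higher (19.7% and 9.51%). The members' median was 0.04 after quantile normalization and -0.07 in both other settings, so its direction depended on the scaling. It was no larger than the median SE of a single member's change (0.08, 0.07 with brightness as a term). That SE does not measure the spread of the members' median, which was not tested. The 14 lower were Ndufb10, Ndufs6, Ndufs7, Ndufs8, Sdha, Uqcrfs1, Uqcrq, Uqcr10, Cox4i2, Cox5a, Cox6b2, Cox8a, Atp5a1 and Atp5d, spread over all 5 complexes.

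**Figure D3:**
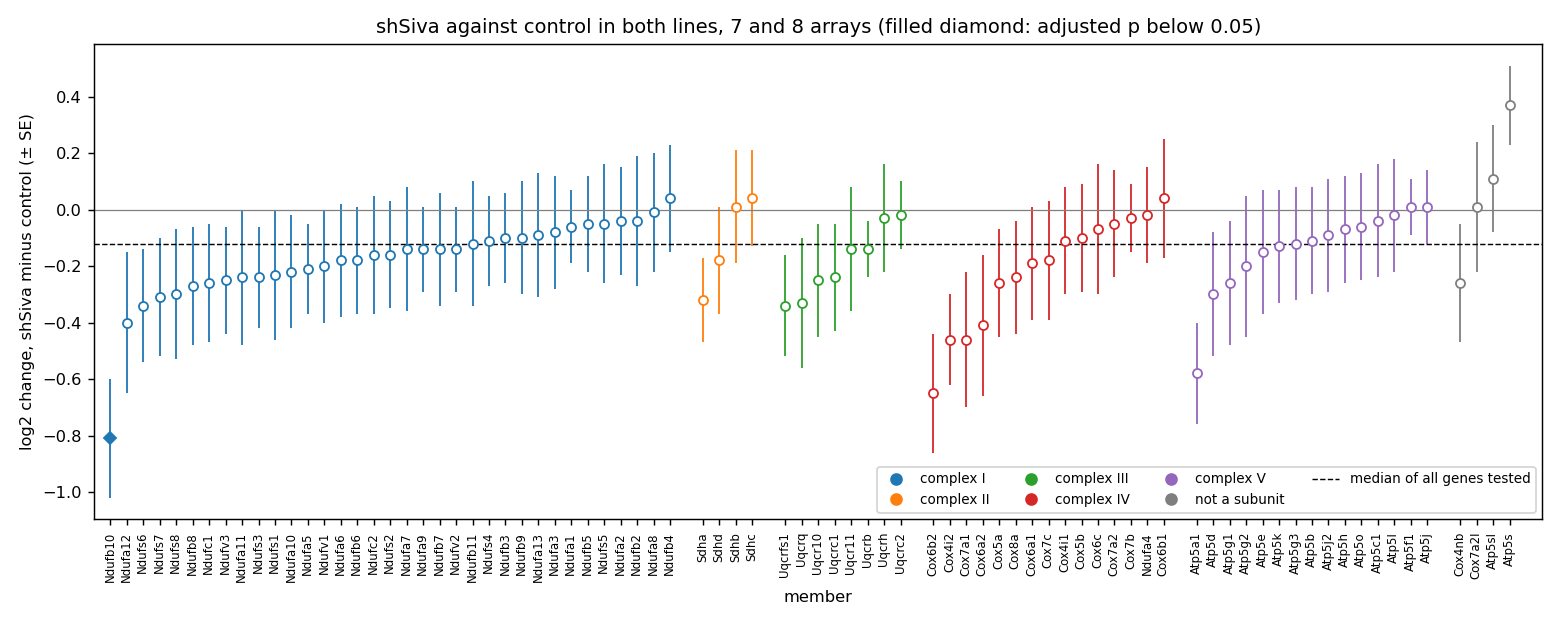
Log2 change of each of the 81 members, Siva hairpins minus control over both lines, on scaled values, with the SE of the limma fit as bars, ordered within each complex; 7 control and 8 Siva arrays. The filled diamond is Ndufb10 at -0.81, the only member called, and the dashed line is the median of all genes, -0.12.

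Within LSZ2, 0 of 81 members were called (limma; 0.937% of all genes; 0 members had an unadjusted p below 0.05), and the members' median was 0.07. Quantile normalization called 1 lower and 0 higher there (0.442% and 1.32% of all genes), brightness as a term 3 and 0 (5.12% and 3.23%) and no scaling 2 and 0 (1.94% and 1.03%). Within LSZ4, 1 was lower and 0 higher (2.2% and 2.37% of all genes), namely Ndufb10 at -1.08 (SE 0.27, adjusted p = 0.0367), and the members' median was -0.33. The Ndufb10 value in LSZ2 was -0.49 on scaled values (SE 0.29, adjusted p = 0.652), and it was called lower there with quantile normalization (-0.56, adjusted p = 0.0283), without scaling (-0.58, adjusted p = 0.0143) and with brightness as a term (-0.60, adjusted p = 0.00403). The LSZ4 call was lost without any of 12 of the 15 arrays in turn, with adjusted p up to 0.12. Without LSZ4 shLacZ replicate 1, the brightest of the LSZ4 controls, 25 members were lower in LSZ4, and the share of all genes was not counted there.

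The difference of the Siva effect between the lines was tested itself. It was called for 0 of 81 members and 0% of all genes (limma; 0 members and 526 of 22836 genes at an unadjusted p below 0.05), and quantile normalization and brightness as a term also called 0 members. The members' median difference, LSZ4 minus LSZ2, was -0.41 on scaled values and -0.06 after quantile normalization. Without both LSZ4 shGFP arrays, the dimmest of all, the members' median change in LSZ4 was -0.00 instead of -0.33.

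The control hairpins gave different pictures, and their contrasts share the same Siva arrays. Against shGFP, 5 members were lower and 1 higher with the Siva hairpins (13.3% and 7.16% of all genes). The lower ones were Ndufb10 (-1.07, SE 0.26, limma adjusted p = 0.0124), Cox6b2 (-0.97, SE 0.23, adjusted p = 0.0129), Cox6a2 (-0.96, SE 0.25, adjusted p = 0.0191), Cox4i2 (-0.68, SE 0.19, adjusted p = 0.0217) and Atp5a1 (-0.75, SE 0.24, adjusted p = 0.0413). Of these, 3 are the tissue-restricted isoforms of cytochrome c oxidase, Cox4i2 being the oxygen-responsive isoform known from lung, and their signals were dim. The gene that was higher, Atp5s, known as coupling factor B or distal membrane arm assembly component 2-like, is not a subunit of the ATP synthase core (0.48, SE 0.13, adjusted p = 0.0215).

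Cox6a2 was the dimmest of these isoforms and the only one not well above background on all arrays. The processed signal of Cox6a2 was 49, 55 and 59 with shGFP, 38, 30, 44 and 42 with shLacZ and 25 to 46 over the 8 Siva arrays. That of Cox4i2 was 307, 198 and 264 with shGFP, 260 to 289 with shLacZ, and 176 to 231 with the Siva hairpins. With normexp background correction only Ndufb10 stayed called against shGFP (-1.15, limma adjusted p = 0.0097). Cox6a2 (-0.26, adjusted p = 0.684), Cox4i2 (-0.48, adjusted p = 0.184), Cox6b2 (-0.64, adjusted p = 0.131), Atp5s (0.40, adjusted p = 0.182) and Atp5a1 (-0.79, adjusted p = 0.0525) were not. All 6 calls against shGFP were lost without both LSZ4 shGFP arrays, which leaves 1 shGFP array. The count was 0 without LSZ4 shGFP replicate 2, 2 without LSZ4 shGFP replicate 1, and 44 without the LSZ2 shGFP array. The share of all genes called was not counted for these omissions, so these counts cannot be set against the background.

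Against shLacZ, 0 members were called on scaled values (limma; 11.2% of all genes; 4 members had an unadjusted p below 0.05), and the members' median was -0.00. Ndufb10 was -0.62 (SE 0.23, adjusted p = 0.11). Quantile normalization called 3 members lower and 1 higher in this contrast (6.35% and 10.6% of all genes), and no scaling 12 lower and 0 higher (18.2% and 7.27%). Brightness as a term called 32 lower and 1 higher (26.6% and 12.8%). The control hairpins compared with each other, shGFP minus shLacZ, gave 0 called members (0.00438% of all genes; 2 members at an unadjusted p below 0.05). On scaled values 78 of 81 members were nevertheless above 0, with a median of 0.41 against 0.23 for all genes. The median was 0.07 after quantile normalization and -0.16 with brightness as a term.

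The 2 Siva hairpins differed from each other in 5 members, on arrays of 1 slide and with the same vector and puromycin. With shSiva2, Ndufa12, Atp5g2, Ndufs4 and Atp5s were higher and Cox7a1 was lower than with shSiva1 (11% of all genes were higher and 9.94% lower). The members' median was 0.27 and that of all genes 0.14. Quantile normalization called 11 higher and 7 lower (14.1% and 14.3% of all genes) with a members' median of 0.01, and these included all 5. No scaling called 7 and 3 (10.6% and 17.5%), and brightness as a term 12 and 9 (22.6% and 19.7%).

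Ndufa12, an accessory subunit of complex I of its peripheral arm, was 0.85 higher with shSiva2 than with shSiva1 (SE 0.25, limma adjusted p = 0.0243). Its unscaled signal with shSiva1 was 40084 and 46422 in LSZ2 and 35273 and 36767 in LSZ4. With shSiva2 it was 64313 and 64253 in LSZ2 and 52041 and 59771 in LSZ4. The 7 control arrays lay between 57024 and 65715, so that all 4 shSiva1 arrays and 1 shSiva2 array, of LSZ4, were below all controls. Its probe lies at chr10:93683562-93683621 on mm9. The change was 0.60 after quantile normalization (adjusted p = 0.000267) and 0.54 with brightness as a term (adjusted p = 0.000234).

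Atp5g2, which encodes subunit c of the membrane ring of ATP synthase, was 0.84 higher with shSiva2 (SE 0.25, limma adjusted p = 0.0279). Its unscaled signal with shSiva1 was 154641 and 181130 in LSZ2 and 197883 and 210657 in LSZ4. With shSiva2 it was 247002 and 252867 in LSZ2 and 290910 and 326850 in LSZ4. The LSZ2 controls lay between 199582 and 233670 and the LSZ4 controls between 256281 and 307425. In each line the shSiva1 arrays were thus below all controls of that line, and the shSiva2 arrays were within or above their range. Its probe lies at chr15:102493359-102493418 on mm9, and its promoter is the one shown above with NRF1 matches.

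Cox7a1, the heart and muscle isoform of subunit VIIa of cytochrome c oxidase, went the other way, 0.90 on the log2 scale lower with shSiva2 (change -0.90, SE 0.23, limma adjusted p = 0.0111). Its unscaled signal with shSiva1 was 1631 and 2038 in LSZ2 and 1356 and 1198 in LSZ4. With shSiva2 it was 874 and 923 in LSZ2 and 538 and 514 in LSZ4. The LSZ2 controls gave 1617, 2117 and 2052 and the LSZ4 controls 937, 994, 899 and 1047, so that in each line the shSiva2 arrays were below all controls of that line. The LSZ4 shSiva1 arrays were above theirs. These orders are of unscaled signal, and Cox7a1 followed the brightness of the array (slope 0.89). On scaled values the control arrays ran from 0.01, on LSZ4 shLacZ replicate 1, to 1.25 and the Siva arrays from -0.23 to 1.28. The Cox7a1 call held without each array in turn (changes -1.00 to -0.80, adjusted p 0.00189 to 0.0427) and under all 12 other settings run. Its probe spans chr7:30970337-30970948 on mm9, a longer stretch than the probe itself.

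Ndufs4, an accessory subunit of complex I, was 0.54 higher with shSiva2 (SE 0.17, limma adjusted p = 0.0392). Its signal was 17175 to 20106 with shSiva1 and 21540 to 25295 with shSiva2, against 17583 to 26481 over the controls. The groups of the Siva hairpins did not overlap. The shSiva2 group lay within the range of the controls, and the shSiva1 group reached below it, to 17175 against 17583. Atp5s was 0.49 higher (SE 0.14, adjusted p = 0.0191), with 165 to 323 for shSiva1 and 184 to 418 for shSiva2, which overlap. Calls of single members here were sensitive to single arrays. Without LSZ2 shSiva1 replicate 1 the count fell from 5 to 1, Cox7a1. It was 2 without LSZ4 shSiva1 replicate 1, LSZ2 shSiva2 replicate 1 or LSZ4 shSiva2 replicate 2. It was 3 without LSZ4 shSiva1 replicate 2, LSZ2 shSiva2 replicate 2 or LSZ4 shSiva2 replicate 1, and 8 without LSZ2 shSiva1 replicate 2. The share of all genes was not counted for these omissions.

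**Figure D4:**
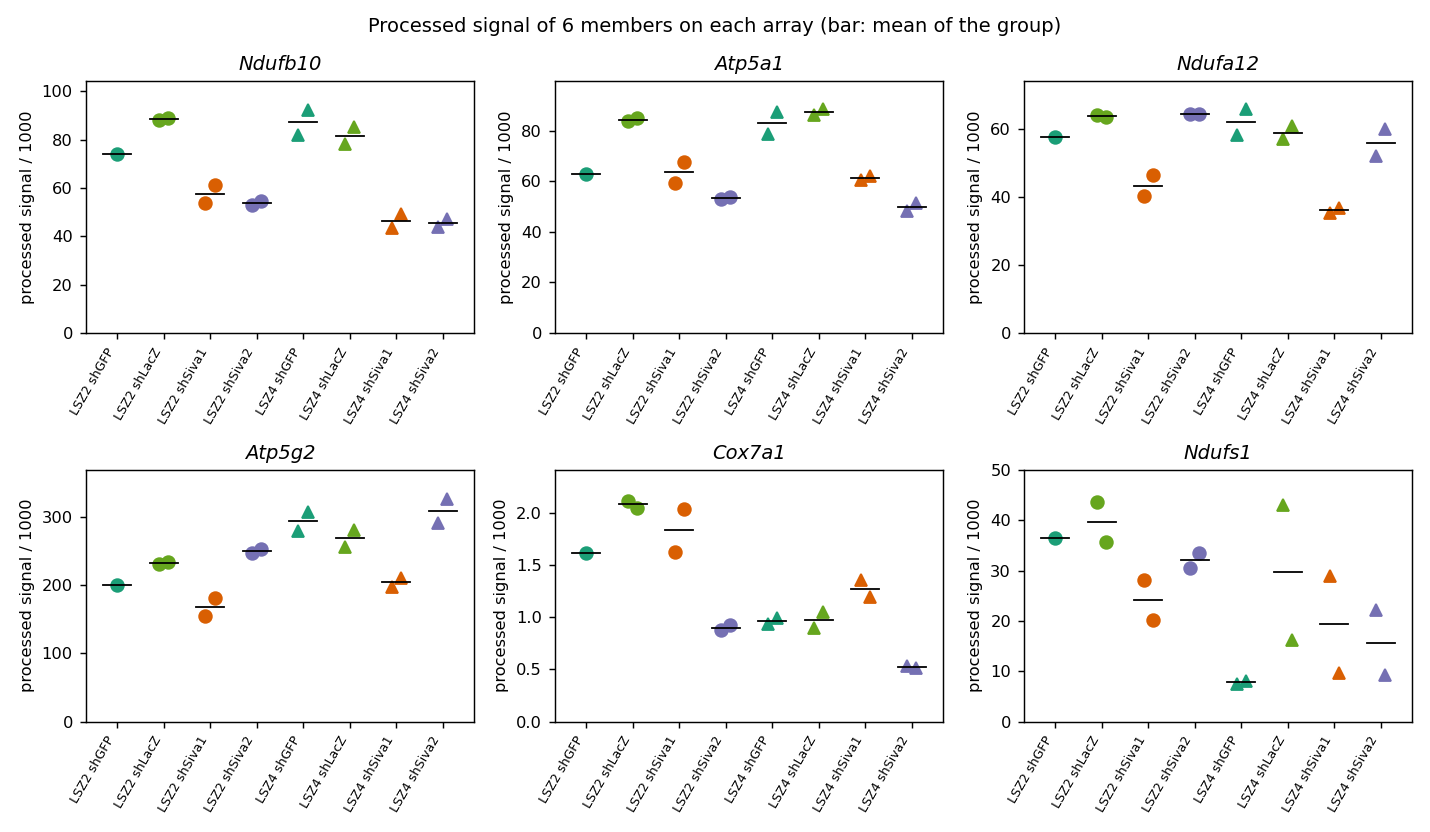
Processed signal (y axis, from 0, in the unit on the axis) of Ndufb10, Atp5a1, Ndufa12, Atp5g2, Cox7a1 and Ndufs1 on each array, by line and hairpin, with the mean of each group as a bar (1 array for LSZ2 shGFP, 2 for each other group). Ndufb10 is lower with both Siva hairpins, Ndufa12 with shSiva1, and Cox7a1 with shSiva2 in each line.

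The comparison of the lines had the most called members on scaled values. LSZ4 was higher than LSZ2 in 24 members and lower in 0 (14.6% and 7.13% of all genes), with a members' median of 0.50 against 0.23 for all genes and 78 of 81 members above 0. The 24 were 11 of 35 members of complex I, 1 of 4 of complex II, 2 of 8 of complex III, 4 of 15 of complex IV, 5 of 15 of complex V, and Cox4nb, an older name of Emc8, which belongs to the endoplasmic reticulum membrane complex. The median was 0.48 in complex I, 0.44 in complex II, 0.49 in complex III, 0.49 in complex IV and 0.56 in complex V.

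The 6 largest were Atp5g2 (0.87, SE 0.25, limma adjusted p = 0.0308), Cox6c, an accessory subunit of cytochrome c oxidase (0.83, SE 0.23, adjusted p = 0.0267), Ndufb9 (0.75, SE 0.20, adjusted p = 0.0245), Cox7c (0.75, SE 0.21, adjusted p = 0.0295), Ndufa13, known also as GRIM-19 (0.75, SE 0.22, adjusted p = 0.0314), and Ndufa6 (0.73, SE 0.20, adjusted p = 0.0282). Ndufb9, Ndufa13 and Ndufa6 are accessory subunits of complex I. On these scaled values the dim LSZ4 shGFP arrays gave the highest values, for example 7.62 and 7.68 for Ndufb9, against 6.45 on the bright LSZ4 shLacZ replicate 1 and 6.17 to 6.44 on the LSZ2 control arrays. The unscaled Ndufb9 signal was 65955 to 77465 in LSZ2 and 77342 to 93491 in LSZ4, which overlap by 1 array of each line.

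The line difference was smaller under the other 3 treatments of array brightness. Quantile normalization called 9 members higher and 3 lower (10.3% and 8.62% of all genes) with a members' median of 0.08. Of the 24 higher on scaled values 8 were among these 9, which is 33.3% of the first list and 88.9% of the second. They included Cox6c (0.36, limma adjusted p = 0.0198), Cox7c (0.33, adjusted p = 0.0284), Ndufb9 (0.27, adjusted p = 0.0174), Ndufa13 (0.27, adjusted p = 0.0263) and Ndufa6 (0.36, adjusted p = 0.0302). The 3 lower in LSZ4 were Cox7b, Ndufa1 and Ndufv2. Without scaling 2 were higher and 10 lower (1.9% and 31.9%), and with brightness as a term 0 were called (1.55% higher and 2.69% lower over all genes; members' median -0.08). The dimmest arrays on both slides were of LSZ4, so brightness and line cannot be fully told apart.

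Within each slide the line difference called 0 members (5.92% of all genes on the control slide and 1.66% on the Siva slide), with medians of 0.74 and 0.32 and 78 of 81 members above 0 on each. The count of 24 depended on single arrays. It was 0 without LSZ2 shGFP replicate 1, LSZ4 shGFP replicate 1, LSZ2 shLacZ replicate 1 or LSZ4 shSiva2 replicate 2. It was 1 without LSZ4 shGFP replicate 2, LSZ2 shLacZ replicate 2, LSZ4 shLacZ replicate 2 or LSZ2 shSiva1 replicate 1. It was 7 without LSZ4 shSiva1 replicate 2, 9 without LSZ2 shSiva2 replicate 2 and 15 without LSZ2 shSiva2 replicate 1. It was 65 without LSZ4 shLacZ replicate 1 and 71 without LSZ4 shSiva1 replicate 1, the brightest arrays of LSZ4, with 1 lower member in each. The share of all genes called was not counted without single arrays, so it is not known whether these shifts were particular to the members.

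**Figure D5:**
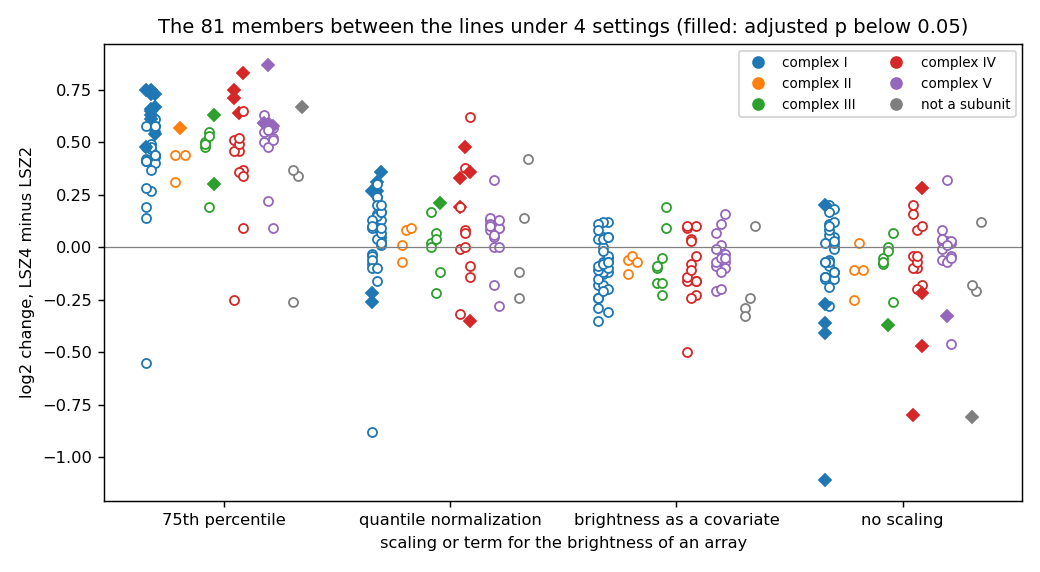
Log2 change of the 81 members, LSZ4 minus LSZ2 (y axis), under 4 settings (x axis): scaling to the 75th percentile, quantile normalization, that percentile as a term of the model, and no scaling; colours mark complexes and filled diamonds an adjusted p below 0.05. The median over the members is 0.50, 0.08, -0.08 and -0.06 in that order.

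The rest of the pathway was described by lists of related genes, to be read against the 5.67% of all genes that were lower and the 4.3% that were higher over both lines. Over both lines, 2 of 16 assembly factors of complex I were lower with the Siva hairpins, 2410091C18Rik (-0.74, SE 0.15, limma adjusted p = 0.00701) and Ndufaf4 (-0.54, SE 0.14, adjusted p = 0.0252). Of 4 assembly factors of complex II, 1110058L19Rik was higher (0.52, SE 0.11, adjusted p = 0.00574). Of 21 of complex IV, 3 were lower, among them Fam36a (-0.66, SE 0.14, adjusted p = 0.00701), an older name of Cox20, and Chchd8 (-1.06, SE 0.30, adjusted p = 0.0333). No factor was called among 5 of complex III and 4 of complex V. Of the factors named here, 2 also differed between the Siva hairpins. With shSiva2 against shSiva1, Chchd8 was lower (-1.24, SE 0.24, limma adjusted p = 0.00188), by more than its change over both lines. Ndufaf4 was higher (0.47, SE 0.15, adjusted p = 0.036).

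Of 19 genes of coenzyme Q, cytochrome c and electron carriers, 2 were lower, Pdss2 (-0.65, SE 0.17, limma adjusted p = 0.0264) and Coq10a (-0.59, SE 0.17, adjusted p = 0.0392), both of the coenzyme Q pathway. Of 75 mitochondrial ribosomal protein genes 3 were lower, the first by p being Mrps24 (-1.14, SE 0.30, adjusted p = 0.0254) and Mrpl10 (-0.67, SE 0.18, adjusted p = 0.0268). Of 21 genes of the tricarboxylic acid cycle 1 was lower, Dlst (-0.68, SE 0.20, adjusted p = 0.0364), a subunit of 2-oxoglutarate dehydrogenase. Of 18 transcriptional regulators in the list 1 was lower, Nr1h3 (-0.77, SE 0.18, adjusted p = 0.0124), which is not one of the factors named above for promoters of the members. None was called among 13 genes of inner membrane transport, 19 of protein import or 4 subunits outside the naming rule. Of 12 tested subunit genes encoded in the mitochondrion (ATP6 was not among them) 0 were called, with a median of 0.00. With shSiva2 against shSiva1, Mrps24 was lower (-1.23, SE 0.25, limma adjusted p = 0.00258), by more than its change over both lines. Pdss2 was higher (0.56, SE 0.18, adjusted p = 0.0414).

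Between the lines, 17 of 75 mitochondrial ribosomal protein genes were higher in LSZ4 and 0 lower (14.6% and 7.13% of all genes), with Mrps6 (1.07, SE 0.19, limma adjusted p = 0.00194) and Mrpl9 (0.76, SE 0.18, adjusted p = 0.013) first by p. Of the complex IV assembly factors 8 were higher and 1 lower, led by Cox17, a copper chaperone (1.01, SE 0.22, adjusted p = 0.00787). Of the mitochondrially encoded genes only ND6 was called (1.07, SE 0.37, adjusted p = 0.0493). Of the 18 regulators 2 were lower in LSZ4, the coactivator Ppargc1a (-1.65, SE 0.39, adjusted p = 0.0139) and Gabpa, the DNA-binding subunit of GABP (-0.58, SE 0.17, adjusted p = 0.0342). These values are on the scaled data and were not repeated under the other scalings.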

How the data were processed

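Each of the 15 arrays was read from its deposited scanner file. Per the file headers, the authors extracted spots with Agilent Feature Extraction 10.7.3.1, which gives a background-subtracted processed intensity and, as other values, flags for spots well above background, saturated or outlying, with probe positions on mm9. The deposited value table holds log2 values; against log2 processed signals less the 75th percentile, each probe centred on its median, the correlation over probes was 0.9997 to 0.9999. It served as an alternative.

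Control and outlier-flagged spots were left out and saturated spots kept. The log2 of the processed signal less the array's 75th percentile was used, with the probe of highest mean signal for each gene name. The 22836 genes tested had to pass the background flag on 4 or more arrays and be missing on no more than 3. The fits used limma 3.58.1 (R 4.3.3), with Benjamini-Hochberg adjustment over all these genes and a threshold of 0.05. The models held line and arm, their interaction, or line and the 4 hairpins, over all 15 arrays. The spread of the group with 1 array is taken from the other groups. Other tools were Python 3.11.15 and matplotlib 3.10.9.

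The members, the gene lists and the comparisons were chosen with earlier results of these data known. Named members were those called, up to 6 of each comparison, the largest rise and fall in each complex over both lines, the isoform sets, the genes that are no subunits, and up to 2 called genes of each related list by p. The Ndufs1 values and the list of members called with brightness as a term were chosen after their values were seen.

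Alternatives were normexp background correction with an offset of 50, quantile and median scaling, other filters on dim probes, the mean of all probes, the value table, a replicate block, line and hairpin as a random block, brightness as a term, and leaving out each array or both LSZ4 shGFP arrays. No scaling between arrays was added after seeing the data. The scripts, tested on simulated data for 22811 genes with 200 changed, recovered at a log2 change of 1 78% over both lines, 58% between the Siva hairpins and 78.5% between the lines, and at 0.5, 25%, 0% and 17%. Simulated noise was drawn independently for each gene and array, without line or hairpin differences in other genes or shifts shared with array brightness. The real arrays had such shifts, so the shares recovered may differ in these data. The number of arrays limits the precision.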

Additional observations from a re-analysis of the deposited data

Results flagged for a closer look

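Of 56 series of values examined, 2 held an array set apart from the others of its arm by a gap of more than the critical share of the range, a rule that flags about 1 in 20 by chance. The scaled log2 value of Cox7a1 on LSZ4 shLacZ replicate 1 was 0.01, against 0.86 to 1.25 on the other 6 control arrays. That array was the brightest LSZ4 control, and the unscaled Cox7a1 signal there was 899 against 937 to 1047 on the other LSZ4 controls. The scaled log2 value of Sdhc on LSZ4 shSiva2 replicate 2 was 5.49, against 4.53 to 4.96 on the other 7 Siva arrays. That array was the dimmest of the Siva arrays. The part of array brightness in these values was not tested.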

How the results depend on the processing

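No named member's call changed sign under an alternative. The members' median moved with the scaling and under some settings changed sign, from 0.50 to 0.08, -0.08 and -0.06 between the lines and from -0.14 to 0.04, -0.07 and -0.07 over both lines (quantile normalization, brightness as a term and no scaling). Median scaling, other filters, the mean of probes, the value table and the replicate block called 19 to 38 members between the lines, all higher in LSZ4. Of the values of named members under the alternatives, 591 kept their side of the threshold, 150 lost it and 14 gained it. Among the alternatives, the share of all genes called was counted only with quantile normalization, brightness as a term and no scaling. The counts of called members that moved are as follows. Over both lines (1 called) the count was 2 with quantile normalization, 3 with the replicate block, 0 with the 8 groups as a random block, 15 with brightness as a term, 0 without both LSZ4 shGFP arrays, 6 without scaling, and 1 to 4 without single arrays, 4 being without LSZ4 shLacZ replicate 1. In LSZ2 (0) it was 1 with quantile normalization, 3 with brightness, 2 without scaling and 0 to 0 without single arrays. In LSZ4 (1) it was 2 with normexp, 0 with no filter on dim probes, 2 with the replicate block, 0 with the random block, 6 with brightness, 0 without both LSZ4 shGFP arrays, 4 without scaling, and 0 to 25 without single arrays. Against shGFP (6) it was 1 with normexp, 10 with quantile normalization, 32 with the replicate block, 0 without both LSZ4 shGFP arrays, and 0 to 44 without single arrays. Against shLacZ (0) it was 4 with quantile normalization, 1 with the replicate block, 33 with brightness, 12 without scaling, and 0 to 1 without single arrays. Between the Siva hairpins (5) it was 18 with quantile normalization, 3 with median scaling, 9 with the replicate block, 21 with brightness, 10 without scaling, and 1 to 8 without single arrays. Between the lines (24) it was 0 with normexp, 12 with quantile normalization, 38 for probes well above background on all 15 arrays, 0 with the random block, 0 with brightness, 0 without both LSZ4 shGFP arrays, 12 without scaling, and 0 to 71 without single arrays. The difference of the Siva effect between the lines and shGFP minus shLacZ stayed at 0 throughout. The cause was not tested. Whether the replicate numbers pair the arrays was not settled. Over 21 pairs of groups the correlation over genes of replicate 1 minus replicate 2 ran from -0.214 to 0.726, above 0.1 in 14.

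Slide, vector and arm cannot be told apart, and the random block correlation was 0.39 for the model of line and arm. With scaled values the median SE of a member over both lines was 0.20, against 0.08 after quantile normalization, so that changes of the members' median size could not be detected gene by gene. Of 25 members with several probes, 4 had a probe of opposite sign over both lines (Atp5l, Cox7a2l, Ndufb5 and Uqcrh), with a largest gap of 0.20. Between the Siva hairpins 2 had one (Ndufb11 and Ndufv3), with a largest gap of 1.13: the other Ndufv3 probe gave -0.83 (limma adjusted p over probes 0.00682) against 0.30 for the probe used. There 2 other Cox7a2l probes passed (0.83, adjusted p = 0.0303, and 0.79, adjusted p = 0.0337), where the probe used gave 0.71 (adjusted p = 0.0727).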
